A study of Arabidopsis thaliana with 30 samples.

Results

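Described here are 200 rows of a transcript count table whose level in cut wild-type Arabidopsis thaliana hypocotyls was highest at 1 h and was back near its start at 24 h. They are read out in the hsfa1abd-2 mutant, whose libraries took no part in choosing them. The table has 36635 rows, of which 293 met the rule, and the 200 with the largest wild-type change at 1 h were taken. The rows carry no gene identifiers, so no gene is named, no sequence is shown, and row numbers, counted from the first data row, are given for 4 members only.

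Cutting a plant organ starts a fast transcriptional response. Calcium and electrical signals and the hormone jasmonate act within minutes, and the early induced genes are known to include many for transcription factors and signalling proteins whose transcripts are short-lived, so that their levels rise and decline quickly. HSFA1 proteins belong to the heat shock factors, DNA-binding activators best known for switching on chaperone genes in heat-stressed plants. In cut hypocotyls, later responses to wounding can lead to callus and to new organs.

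The groups are explants of hsfa1abd-2 and of the wild type, WT Col-0, each at 0, 0.5, 1, 3 and 24 h, with 3 replicates per group and 30 libraries in all. All groups share the Col-0 background, growth in darkness for 7 days on MS medium, and the wound itself, since the 0 h explants are labelled as wounded too. Each replicate pools about 50 explants, cut with a scalpel and taken as whole tissue, and the replicates are called biological in the labels. The mutant is 1 line, named for HSFA1A, HSFA1B and HSFA1D, and its alleles are not stated in the labels used here. No uncut seedlings were analysed here, so effects of cutting, of the hour of the day and, at 24 h, of tissue age cannot be told apart.

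Library totals were 3164714 to 4296509 counts, apart from the wild-type 0.5 h replicate 1 library with 578179. That shallow library entered the rule, and 197 of the 200 members were the same when it was left out of it. Since no gene is named, neither the tissue markers nor the mutated genes could be looked up in these libraries.

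The members were chosen by wild-type values alone. CPM is the count per 1000000 counts of the library, and the level L is log2(1 + mean CPM of the 3 libraries of a group). Members had a wild-type L of at least 1 at 0 h, that is, at least 1 CPM. Their L was highest at 1 h, at least 1.5 above 0 h at that time, and within 1 of the 0 h value at 24 h. Wild-type changes in L at 1 h thus ran from 1.87 to 7.32 among the members, with a median of 2.57. The last 2 members taken had changes of 1.87 each and the next 2 rows, left out, 1.86 each. In hsfa1abd-2 the changes were 1.70 and 1.75 for those last 2 members and 0.99 and 1.82 for the 2 rows left out. Wild-type values of the members describe the choice, and counts from comparisons that use them are given further on as descriptions only.

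The members spanned a wide range of starting levels. At 0 h their mean level ran from 0.0804 to 254 CPM in hsfa1abd-2 and from 1.01 to 281 CPM in the wild type. The median member of a library stood at 11.3 ± 0.804 CPM at 0 h, 79.6 ± 0.930 CPM at 1 h and 12.5 ± 0.715 CPM at 24 h in hsfa1abd-2, against 10.97 ± 0.115, 95.1 ± 4.3 and 11.9 ± 0.495 CPM in the wild type (SD, n = 3 each). In bulk tissue, fewer cells of a type and less RNA per cell cannot be told apart. All 200 passed the filter on low counts that left 18526 rows for testing.

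Summed over the members, the share of each library's counts rose and declined in hsfa1abd-2 as it did in the wild type. At 0 h the members held 0.451%, 0.437% and 0.439% of the counts of the hsfa1abd-2 libraries, and at 0.5 h they held 1.59%, 2.20% and 1.46%. Their share was 2.93%, 2.96% and 3.03% at the peak, 1.57%, 1.38% and 1.69% by 3 h, and 0.443%, 0.447% and 0.444% by 24 h. No 1 h library of the mutant overlapped its libraries of any other time, and the 0.5 h replicate 2 library lay above its 2 partners. In the wild type the members held 3.93%, 3.60% and 3.61% at 1 h, each above the 3 mutant libraries of that time. The genotypes overlapped at the times on either side of it. Wild-type shares were 2.04%, 2.21% and 1.74% at 0.5 h, and 1.42%, 1.41% and 1.61% at 3 h. Means at 1 h were 2.97 ± 0.0477% in hsfa1abd-2 and 3.72 ± 0.190% in the wild type (SD, n = 3 each), and the wild-type mean is of rows selected on high wild-type values.

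**Figure D1:**
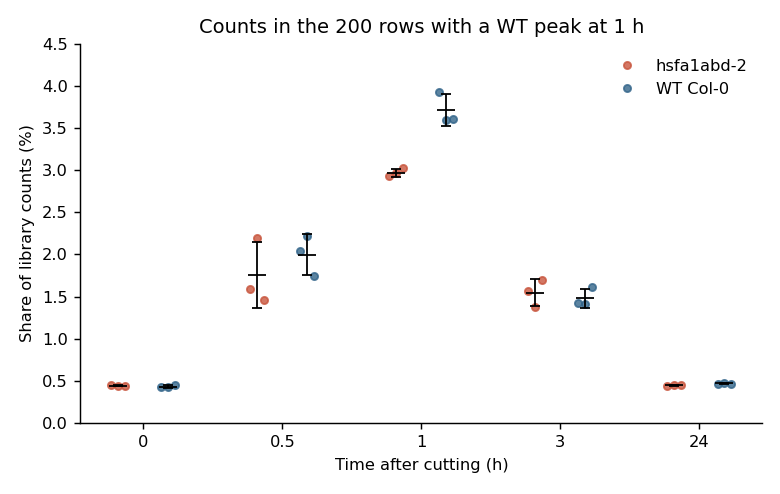
Share of all counts of a library (%, y axis) that fell in the 200 members, by time after cutting (h, x axis), with 1 point per library, hsfa1abd-2 left of WT Col-0, and bars for mean ± SD (n = 3). In the mutant the share is 2.93% to 3.03% at 1 h and 0.437% to 0.451% at 0 h.

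In hsfa1abd-2, 198 of the 200 members rose at 1 h. By edgeR's quasi-likelihood test, adjusted by Benjamini-Hochberg over all tested rows, 198 were called higher at 1 h than at 0 h, against 19.97% of all tested rows. The same 198 passed with a change of at least 2-fold, a limit that 12.0% of all tested rows reached. Rises of at least 4-fold were called for 167 members (5.76% of all tested rows) and of at least 16-fold for 28 (1.38% of all tested rows). The median log2 fold was 2.66 over the members and -0.01 over all tested rows. For 198 members every 1 h library of the mutant lay above every 0 h library, as it did for 17.6% of all tested rows. Per library, the median member change in log2(1 + CPM) was 2.37, 2.37 and 2.34, a mean of 2.36 ± 0.0183 (SD, n = 3), while the median of all tested rows changed by -0.22 on this scale. With TMM scaling of the same values the median of all tested rows changed by -0.0020 and that of the members by 2.56. Starting level made little difference to this count. Of the 50 members with the lowest wild-type 0 h level, 1.01 to 4.54 CPM, 50 were called, and of the 50 with the highest, 26.0 to 281 CPM, 50 were called.

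The rise in the mutant was under way at 0.5 h. At that time 178 members were called higher than at 0 h, against 14.6% of all tested rows, and 160 of these were at least 2-fold higher (9.07% of all tested rows). By edgeR 0 were called lower, against 8.30% of all tested rows. At an unadjusted p under 0.05, 1 member was lower, against 14.1% of all tested rows. Per library the median member change was 1.55, 1.99 and 1.38, and the count was 168 without the 0.5 h replicate 2 library, which gave the highest of these values. Between 0.5 and 1 h, 132 members rose further, a step called for 11.6% of all tested rows. Of the 198 that rose at 1 h, 20 were not called at 0.5 h, a combination found in 8.37% of all tested rows.

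**Figure D2:**
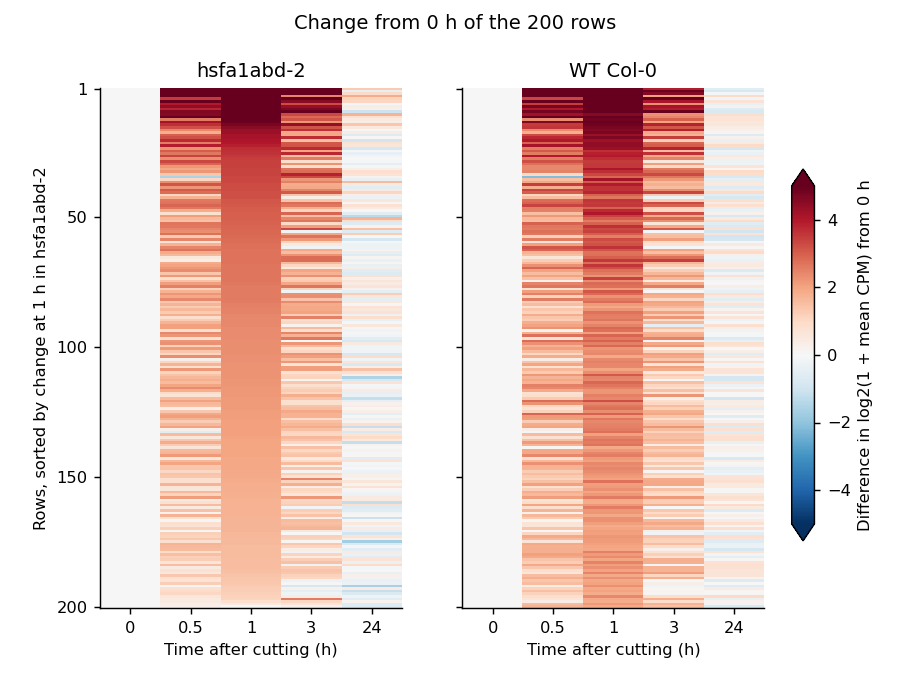
Change from 0 h in log2(1 + mean CPM) (colour, capped at 5 in either direction) at each time after cutting (h, x axis) for the 200 members (y axis, 1 line each, sorted by the 1 h change in hsfa1abd-2), with hsfa1abd-2 on the left and WT Col-0 on the right. Both panels are reddest at 1 h, where the median change is 2.33 in hsfa1abd-2 and 2.57 in the wild type, and pale again at 24 h.

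At 3 h most members were on the way down and still above their start. In hsfa1abd-2, 139 members fell between 1 and 3 h, against 10.1% of all tested rows, and 91 of them fell at least 2-fold (3.64% of all tested rows). The median log2 fold for 3 h against 1 h was -0.86 over the members. Compared with 0 h, 177 members were still higher at 3 h, against 24.08% of all tested rows, and 158 members were called higher at 0.5, 1 and 3 h alike, as were 9.82% of all tested rows. The median member kept 67.2% of its 1 h change in L at 3 h in hsfa1abd-2 and 59.0% in the wild type, where the rule required the peak to lie at 1 h. By 3 h, 1 member was called below its start in the mutant, against 18.6% of all tested rows. It had 12.3, 8.61 and 9.47 CPM at 0 h, 25.6, 23.7 and 31.1 CPM at 1 h, and 4.39, 5.62 and 5.50 CPM at 3 h (log2 fold for 3 h against 0 h -0.79, approximate SE 0.272, edgeR adjusted p = 0.0189), and it was picked out after its values were seen.

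By 24 h the members had come down in the mutant too. Against 1 h, 198 were lower at 24 h, of which 195 at least 2-fold, where 26.7% and 14.97% of all tested rows were. The median log2 fold for 24 h against 1 h was -2.66, close in size to the rise. Against 0 h, 51 members were called higher at 24 h and 29 lower, shares of 25.5% and 14.5% that compare with 26.6% and 21.3% of all tested rows. The median log2 fold for 24 h against 0 h was 0.11 over the members and 0.07 over all tested rows. The full course, called higher at 1 h than at 0 h, lower at 24 h than at 1 h and in neither direction between 24 and 0 h, was seen in 118 members and in 8.10% of all tested rows. The 51 higher members had log2 folds of 0.32 to 3.82 with a median of 0.86, and the 29 lower ones of -2.16 to -0.48 with a median of -0.88. The value of 3.82 belonged to a member whose 0 h level in the mutant rests on 1 count in all. The wild-type change at 24 h had the same sign in 46 of the 51 and in 26 of the 29, and the rule kept that change within 1. The same agreement was not counted over all tested rows, so it is not read as a trait of the members. The member lowest at 24 h relative to its start had 6.75, 6.60 and 8.61 CPM at 0 h, 23.7, 22.6 and 28.4 CPM at 1 h, 9.05, 6.21 and 8.10 CPM at 3 h, and 0.975, 1.57 and 2.16 CPM at 24 h in hsfa1abd-2 (log2 fold for 24 h against 0 h -2.16, approximate SE 0.348, edgeR adjusted p = 4.62e-06). In the mutant its 24 h libraries lay below all others. In the wild type they had 2.36, 2.82 and 1.92 CPM, also below the 0 h libraries with 3.71, 5.75 and 3.44 CPM.

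Most members peaked at the same time in both genotypes. In hsfa1abd-2, 173 of 200 (86.5%) had their highest mean level at 1 h, 11 at 0.5 h, 16 at 3 h and none at 0 or 24 h. Of all tested rows, 9.28% had their highest level at 1 h in the mutant. For the 11 members with the mutant peak at 0.5 h, L exceeded that at 1 h by 0.0017 to 0.29. By edgeR 0 members were called lower at 1 h than at 0.5 h, against 8.95% of all tested rows. At an unadjusted p under 0.05, 0 members were lower, against 15.1% of all tested rows. For the 16 with the mutant peak at 3 h, L exceeded that at 1 h by 0.0037 to 1.43, and 1 was called higher at 3 h than at 1 h, against 12.8% of all tested rows. This member, noticed for its values, had 5.37, 3.1 and 8.23 CPM at 1 h and 16.2, 13.6 and 20.3 CPM at 3 h in hsfa1abd-2, against 10.6, 6.18 and 14.1 CPM at 1 h and 8.51, 9.31 and 11.3 CPM at 3 h in the wild type. The mutant libraries of the 2 times did not overlap (log2 fold 1.54 for 3 h against 1 h, approximate SE 0.349, edgeR adjusted p = 0.00114), while those of the wild type did. The number with a mutant peak at 1 h was 159 to 180 when any single mutant library was left out, with both extremes set by 0.5 h libraries, replicates 3 and 2.

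Rows chosen in the same way for a wild-type peak at 0.5 or 3 h also kept their peak time in the mutant in most cases. Of 200 rows with a wild-type peak at 0.5 h, 178 (89.0%) peaked at 0.5 h in hsfa1abd-2, against 12.5% of all tested rows. Of 200 with a peak at 3 h, 181 (90.5%) peaked at 3 h, against 15.5% of all tested rows. These shares are given side by side with no test.

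Members differed in how fast they rose, and the order carried over to the mutant. In 86 members the wild type had reached at least 75% of its 1 h change in L by 0.5 h, in 63 members 50 to 75%, and in 51 members under 50%. In hsfa1abd-2 the median changes at 0.5 h in these classes were 2.17, 1.60 and 0.76, against 2.44, 1.65 and 0.78 in the wild type. At 1 h the mutant medians were 2.35, 2.41 and 2.16, against 2.66, 2.64 and 2.42 in the wild type. All 11 members with a mutant peak at 0.5 h belonged to the fastest class. Decline sorted members in the same way. In 57 members the wild type kept at least 75% of the change at 3 h, in 64 it kept 50 to 75% and in 79 under 50%, and the mutant medians at 3 h were 2.24, 1.58 and 0.89, against 2.12, 1.60 and 0.86 in the wild type. Of the 16 members with a mutant peak at 3 h, 15 were in the slowest declining class. The classes are cut from the wild-type values that chose the members. Across the 200 members the change in L at 1 h in hsfa1abd-2 followed that in the wild type, with Pearson's r = 0.946 and Spearman's rho = 0.861, given as a description, since rows share libraries and the wild-type range is set by the rule.

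The members with the largest and smallest mutant changes show the range. The largest log2 fold at 1 h, 11.1 (approximate SE 0.462, edgeR adjusted p = 1.84e-16), belonged to row 24645. This row had 0.241, 0 and 0 CPM at 0 h in hsfa1abd-2, then 91.8, 156 and 89.5 CPM at 0.5 h, 221, 228 and 267 CPM at 1 h, 49.6, 42.0 and 68.6 CPM at 3 h, and 2.68, 1.57 and 0.811 CPM at 24 h. Its 0 h level rests on 1 count in all, so the fitted fold depends on the prior count. The approximate SE is for the same reason no measure of the error of this fold. The ratio of 1 h to 0 h was 2652, with a 95% interval of 476 to 104800 from counting error alone (exact Clopper-Pearson). Its wild-type libraries had 264, 275 and 262 CPM at 1 h, a range that overlaps that of the mutant.

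Row 20643 followed with a log2 fold of 8.63 (approximate SE 0.386, edgeR adjusted p = 2.11e-15). It had 0.482, 1.72 and 1.15 CPM at 0 h in hsfa1abd-2, 372, 371 and 388 CPM at 1 h, 169, 83.4 and 172 CPM at 3 h, and 0.487, 1.05 and 0.270 CPM at 24 h. The 24 h libraries overlap those of 0 h and lie far below those of 1 h. Of all members it had the largest wild-type change at 1 h, to 436, 494 and 400 CPM.

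The most abundant member at 1 h in the mutant had 222, 291 and 248 CPM at 0 h, 1233, 1199 and 1146 CPM at 1 h, and 103, 74.2 and 79.8 CPM at 24 h in hsfa1abd-2. Its 24 h level lay below its 0 h level (log2 fold -1.52, approximate SE 0.194, edgeR adjusted p = 1.72e-07). In the wild type it had 1568, 1530 and 1568 CPM at 1 h, above every mutant library. The genotypes were not called different at that time (log2 fold -0.39 for mutant against wild type, edgeR adjusted p = 0.197). Its wild-type 24 h libraries, with 167, 149 and 158 CPM, also lay below those of 0 h, with 218, 255 and 370 CPM. At 24 h the mutant was called lower than the wild type (log2 fold -0.99, edgeR adjusted p = 0.000645). The difference in change from 0 h was not called at 24 h (edgeR adjusted p = 0.0904), and wild-type values had chosen the row. The member nearest the median mutant fold had 27.2, 32.2 and 34.4 CPM at 0 h and 154, 165 and 189 CPM at 1 h in hsfa1abd-2 (log2 fold 2.67, approximate SE 0.152, edgeR adjusted p = 1.11e-15). Its 1 h levels in the wild type, 153, 166 and 150 CPM, overlapped those of the mutant.

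Rows 24066 and 24073 were the 2 members not called at 1 h in hsfa1abd-2, and they were also the 2 with the largest spread between replicates. Row 24066 had 26.5, 9.76 and 4.3 CPM at 0 h and 22.4, 20.01 and 13.4 CPM at 1 h in the mutant (log2 fold 0.67, approximate SE 0.970, edgeR adjusted p = 0.647). Its wild-type libraries had 18.5, 42.4 and 90.7 CPM at 1 h. Row 24073 had 16.9, 4.31 and 2.87 CPM at 0 h and 11.4, 7.89 and 4.27 CPM at 1 h in the mutant (log2 fold 0.16, approximate SE 1.09, edgeR adjusted p = 0.936). Its wild-type libraries had 21.0, 2.46 and 2.12 CPM at 0 h and 10.1, 27.4 and 65.5 CPM at 1 h. In both rows the libraries of 0 and 1 h overlapped in the mutant and in the wild type alike. Their SD within mutant groups, averaged over the 5 times on the log2(1 + CPM) scale, was 1.14 and 1.09, against a median of 0.287 over the members. Within wild-type groups it was 1.17 and 1.25, against a median of 0.255.

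**Figure D3:**
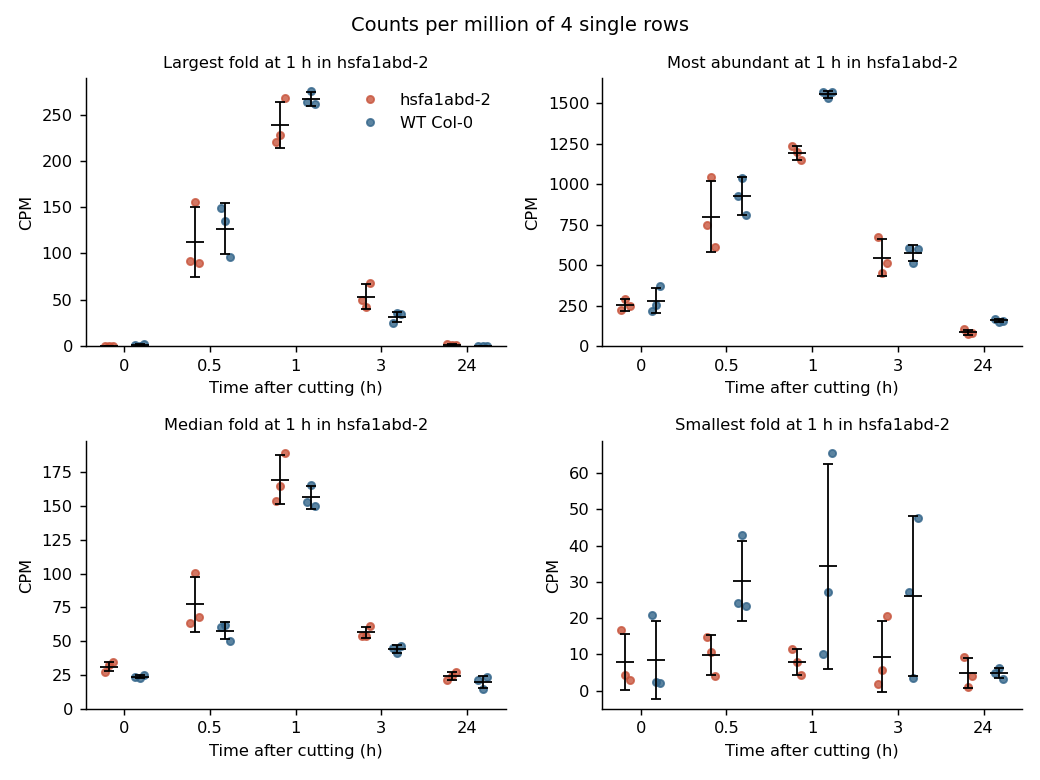
CPM (y axis) of 4 members by time after cutting (h, x axis), with 1 point per library, hsfa1abd-2 left of WT Col-0, and bars for mean ± SD (n = 3). The member with the largest mutant fold lies between 221 and 267 CPM at 1 h in the mutant, against at most 0.241 CPM at 0 h, and the member with the smallest shows replicates of both genotypes that spread widely and overlap.

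Whether the 1 h rise was smaller in the mutant, and by how much, cannot be read from the members as chosen, because the rule picked rows with a high wild-type value. Over the 200 members the change in L at 1 h was smaller in hsfa1abd-2 by a median of 0.36 (median of mutant minus wild type -0.36), and edgeR called 26 members lower and 3 higher in the mutant at 1 h, where 2.97% and 3.06% of all tested rows were. The difference in change from 0 h between genotypes was called by edgeR for 0 members at 0.5, 1 and 3 h, where 0.0810%, 0.0432% and 0.221% of all tested rows were called lower and 0%, 0.0162% and 0.259% higher. At an unadjusted p under 0.05 the change was lower in hsfa1abd-2 for 17, 37 and 7 members at these times, against 2.60%, 2.87% and 3.81% of all tested rows, and higher for 2, 3 and 8 members, against 3.59%, 4.14% and 5.27%. At 24 h it was called lower in hsfa1abd-2 for 4 members and higher for 1, where 1.45% and 1.71% of all tested rows were called. Wild-type values that chose the rows enter every one of these genotype comparisons, so nothing is read from their counts, including those of 0.

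To read the difference in a library that did not choose the rows, members were chosen anew without 1 wild-type replicate number and the change was then read in that replicate. The wild-type change then rests on 1 library at each time and 1 at 0 h. The rows are still chosen on the other 2 wild-type replicates and on no mutant library, so the lists still favour rows that rise strongly in the wild type. This choice by itself can make the mutant change the smaller, so the sign of the difference is not read as an effect of the genotype. The 3 lists of 200 shared 169 to 174 rows with the members. At 1 h the median change in log2(1 + CPM) over them was 2.28, 2.33 and 2.29 in hsfa1abd-2, against 2.68, 2.58 and 2.50 in the wild-type replicate left out. The mutant change was the smaller in each case, with differences of -0.40, -0.25 and -0.21 (mutant minus wild type), a mean of -0.29 ± 0.103 (SD, n = 3). With lists of 100 rows the mean was -0.44, and with TMM-scaled CPM it was -0.25. Over all tested rows the same difference was 0.08, -0.0019 and 0.03. Between 71.5% and 82.0% of the rows in each list had the smaller change in the mutant, against 46.7% to 50.1% of all tested rows. All tested rows were not chosen on a wild-type rise and are thus no matched baseline for the lists.

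At 3 h the difference was 0.05, 0.07 and -0.13, with a mean of -0.0046 ± 0.106 (SD, n = 3), so its sign varied with the replicate left out. At 0.5 h it was -0.27, -0.40 and -0.04, and the first of these was read in the shallow library. At 24 h it was -0.09, -0.06 and 0.02. The 3 values at each time share the mutant libraries and most of their rows, so their SD covers the wild-type replicates only, and no test was made of a score over rows chosen in this way. For rows with a wild-type peak at 0.5 h, read in the same way at 0.5 h, the difference was -0.29, -0.26 and 0.08, and for rows with a peak at 3 h, read at 3 h, it was -0.10, -0.11 and -0.38.

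**Figure D4:**
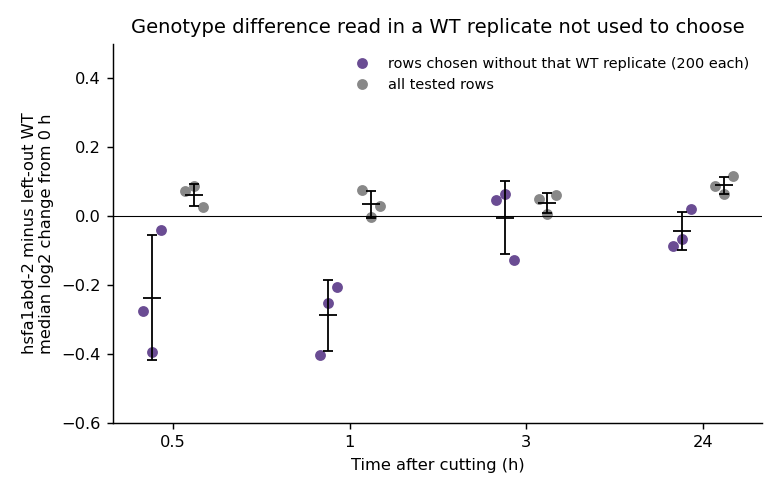
Median log2 change from 0 h in hsfa1abd-2 minus that in the left-out WT replicate (y axis, log2(1 + CPM) scale) at each time after cutting (h, x axis). Purple points are 3 lists of 200 rows chosen without that replicate but on other WT libraries, which favours a larger WT change. Grey points are all tested rows, not chosen in this way, and bars are mean ± SD (n = 3). The purple points are at -0.40 to -0.21 at 1 h and on both sides of 0 at 3 h.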

How the data were processed

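Libraries of 30 pools of hypocotyl explants came from RNeasy extracts and a stranded Kapa mRNA kit, per the labels' protocols. The submitters' processing notes name fastp, STAR and TAIR10, while versions, counting tool, strand setting and annotation were not stated there. One table of raw whole-number counts per row and library was deposited by the authors without normalization. How it assigns reads of paralogs, overlapping genes or antisense partners is not stated either.

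From these counts, CPM used column sums, and members were chosen by the rule in the text with a pseudocount of 1. Tests used edgeR 4.0.16 (limma 3.58.1, R 4.3.3) with filterByExpr (minimum count 10, minimum total 15), TMM scaling and 1 quasi-likelihood model of 10 groups. P-values were Benjamini-Hochberg adjusted per contrast over 18526 rows, at 0.05. Each SE is approximate, being the absolute log2 fold over the square root of F. At the median depth of 3595387 counts, 3 counts come to 0.834 CPM, and in the shallow library to 5.19 CPM. Intervals cover counting error only.

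The members and the comparisons were chosen with earlier results of these data known, and the reading at 0.5, 3 and 24 h in left-out replicates was added later. The rows with the 2 largest and 2 smallest mutant folds at 1 h are numbered, and others were described by rank. Alternatives were RLE size factors, DESeq2 1.42.0, no filter, fits of the compared groups alone, each library left out, a replicate block, other scalings, a pseudocount of 0.5 and 100 members.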

Additional observations from a re-analysis of the deposited data

Results flagged for a closer look

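Row 24645, which had the largest mutant fold at 1 h, had mean changes of opposite sign in the genotypes at 24 h. In hsfa1abd-2 its 3 libraries at 24 h, with 2.68, 1.57 and 0.811 CPM, were all above the 0 h mean, where the libraries had 0.241, 0 and 0 CPM. In the wild type its 3 libraries at 24 h, with 0.262, 0.512 and 0.547 CPM, were all below the 0 h mean, where the libraries had 0.927, 0.274 and 2.12 CPM. The difference between genotypes in this change was 1.72 on the log2(1 + CPM) scale. In edgeR's quasi-likelihood fit it was 4.99 (approximate SE 1.52, adjusted p = 0.0698), which did not pass the threshold, and the wild-type libraries had chosen the row. All of these levels rest on 11 counts or fewer per library.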

How the results depend on the processing

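The 6 counts of called members stayed within 1.5 times of the reported ones under every alternative run. Members higher at 1 h than at 0 h numbered 197 to 198, lower at 24 h than at 1 h 197 to 198, higher at 0.5 h 168 to 180, higher at 3 h 166 to 178, lower at 3 h than at 1 h 125 to 144, and higher at 24 h than at 0 h 38 to 52. With the replicate block the counts were 178, 198, 177 and 51 higher at 0.5, 1, 3 and 24 h and 138 and 198 lower at 3 and 24 h than at 1 h. Correlations of same-numbered libraries between compared groups were -0.37 to 0.43, which does not settle whether the numbers pair the samples. Each library correlated best with its own number in the comparison of 24 and 1 h alone, and in the others some or none did. The mean of the median member change at 1 h in hsfa1abd-2 was 2.54 with members chosen anew from TMM-scaled CPM. That list of 200 shared 188 rows with the members, and the unchanged members had 2.56 with this scaling. The mean was 2.26 with a pseudocount of 0.5 and 2.99 with 100 members, and 2.33 to 2.38 with single libraries left out. Of those 100 members, 90 peaked at 1 h in the mutant. The difference read in left-out replicates at 1 h was -0.44 with 100 members, -0.25 with TMM-scaled CPM (-0.42, -0.19 and -0.16 for the 3 replicates), -0.29 with a pseudocount of 0.5 and -0.28 to -0.29 with single mutant 1 h libraries left out. The share of members called higher among those called at 24 h against 0 h, 63.8%, was 56.3% to 66.1%. Calls over all tested rows leaned the same way in the reported fit, with 4928 higher and 3941 lower. Depth limits what can be said of members under 0.834 CPM in a group.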

Other observations

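Read in the mutant columns instead, the same rule was met by 244 rows, against 293 in the wild-type columns. In all, 168 rows met it in both, which is 68.9% of the mutant list and 57.3% of the wild-type list. Of the 200 members, 140 met it in hsfa1abd-2. Of the others, 27 peaked at another time there, 14 changed by under 1.5 at 1 h, 13 and 11 were above or below the limits at 24 h, and 5 started under the minimum level, with some members failing in several ways. For the 200 rows with the largest mutant change by this rule, the median of mutant minus wild type at 1 h was -0.23. That choice favoured high mutant values, but 128 of these rows were also among the 200 members chosen in the wild type. The 2 lists are thus not independent, and nothing is read from this value. The 2 members not called at 1 h in the mutant, rows 24066 and 24073, went up and down together between replicates. Their deviations from group means correlated at r = 0.974 over the 15 mutant libraries, which both rows share, and both were highest at 3 h in replicate 3 of that time, with 48.0 and 20.5 CPM. No such correlation was computed for other rows, so it is not read as particular to this pair.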
